A study of Mus musculus with 8 samples.

Results

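The broad open domains are the widest merged stretches of accessible chromatin in which all samples from 4 regions of the embryonic mouse forebrain had a peak. The whole stretch need not be open in each sample. The peaks called in each of 8 single-nucleus ATAC-seq samples were merged where they touched or overlapped, and a merged region on chromosomes 1 to 19 was taken as a broad domain when every sample had a peak in it and its merged width was 6000 bp or more. Of 292495 merged regions, 68274 had a peak in all 8 samples, 66854 of them on chromosomes 1 to 19, and 1464 of these met the width rule. They made up 2.19% of the shared autosomal regions and 10.5% of their summed width, 13.5 Mb in all. The samples were wild-type (WT) mouse embryonic brain, 2 from the cortex (CTX) and 2 each from the medial, lateral and caudal ganglionic eminences (MGE, LGE and CGE, jointly GE), the ventral swellings that generate most forebrain GABAergic neurons. The labelled age was E12.5 in 7 of them and E14.5 in CTX replicate 2. Both the difference between the CTX replicates and the contrast of CTX with GE thus contain any difference of age. The labels give no strain and do not say whether embryos were pooled or whether the 2 samples of a region came from separate litters, so p-values measure the spread between these samples, which may be technical.

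ATAC-seq uses a transposase that cuts DNA where it is not wrapped tightly in nucleosomes, so that reads pile up at promoters, enhancers and other accessible chromatin. Most such sites are short. In many cell types, long accessible domains are known to lie over genes that encode lineage transcription factors and signalling molecules, where a promoter rich in CpG dinucleotides and several enhancers adjoin. In the forebrain, factors such as Emx2, Lhx2 and Pax6 specify the cortex, Dlx and Gsx factors specify the eminences, and Nkx2-1 and Lhx6 the MGE lineage. A merged domain takes its edges from whichever sample has the longest peaks there, so its width, its presence in all samples and the length covered in each sample belong to the rule and are given as description without a test.

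The samples held 3465 to 6845 nuclei and 77387940 to 138873845 counts in peaks, and 103633 (LGE replicate 1) to 182638 (CGE replicate 2) peaks. The 4 replicate 1 samples had 9.54% to 10.4% odd matrix entries and the 4 replicate 2 samples 5.17% to 5.85%. This share thus divides the samples by replicate number into sets, each with 1 sample per region. The labels name no batch, so what the sets differ in is not known. Pairs of libraries shared 15 to 56 barcodes, 0.414% to 1.17% of the smaller library. The regional labels were checked against fixed marker genes by summing the counts scaled to library size (CPM) over gene bodies: the MGE list (8 genes such as Nkx2-1 and Lhx6) summed to 1316 and 1604 in MGE and to 554 to 686 elsewhere, the list of 10 pan-GABAergic genes to 430 and 567 in CTX and 1232 to 2706 in GE, and the CTX list of 16 genes to 1997 and 2509 in CTX and 1085 to 1501 in GE. The other 2 labels were not separated by their lists. The LGE list summed to 1864 and 2088 in LGE and to 1634.8 to 1892 elsewhere, and the CGE list to 758 and 1228 in CGE and to 387 to 759 elsewhere. MGE replicate 1 and LGE replicate 1 stood apart in the domains, the former with the largest share of its counts there and the latter with the shortest peaks, and results that rest on either are given without it as well.

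Several of the widest domains lay over microRNA genes, and their mature sequences are shown because they name those loci more directly than the neighbouring protein-coding genes do. Of 2053 annotated miRNA genes on these chromosomes 79 (3.85%) lay in a domain, and 58 of the 79 had a mature sequence in the RefSeq table for GRCm38.p6. All 3 genes of miR-9, a regulator of neural progenitors, lay in domains, as did both genes of miR-125b. The miR-9 genes yield the same pair of mature RNAs from the 2 arms of the hairpin. The seed, bases 2 to 8, which pairs with target messages, is in capitals.
mmu-miR-9-5p: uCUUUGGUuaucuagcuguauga
mmu-miR-9-3p: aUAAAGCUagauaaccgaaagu
mmu-miR-125b-5p: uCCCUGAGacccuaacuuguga
mmu-miR-92b-3p: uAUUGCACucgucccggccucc
mmu-miR-149-5p: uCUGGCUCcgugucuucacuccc

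Promoters of the domains were rich in CpG. The 250 bases before the RefSeq start site (GRCm38.p6) are shown for 6 genes whose domains are described in the results, written 5′ to 3′ on the strand of the gene, with each CG dinucleotide in capitals.
Nr2f1, chr13:78198874-78199123, minus strand: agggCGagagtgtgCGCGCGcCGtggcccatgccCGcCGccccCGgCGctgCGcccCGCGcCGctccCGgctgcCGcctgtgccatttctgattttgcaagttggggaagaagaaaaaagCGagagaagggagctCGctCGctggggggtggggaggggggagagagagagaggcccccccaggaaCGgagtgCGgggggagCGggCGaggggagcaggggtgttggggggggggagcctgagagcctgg
Emx2, chr19:59458440-59458689, plus strand: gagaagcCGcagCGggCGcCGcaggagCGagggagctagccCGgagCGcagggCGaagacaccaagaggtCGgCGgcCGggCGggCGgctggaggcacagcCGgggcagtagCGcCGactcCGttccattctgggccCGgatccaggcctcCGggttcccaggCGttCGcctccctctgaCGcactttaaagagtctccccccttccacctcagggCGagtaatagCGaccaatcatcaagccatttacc
Dlx1, chr2:71529195-71529444, plus strand: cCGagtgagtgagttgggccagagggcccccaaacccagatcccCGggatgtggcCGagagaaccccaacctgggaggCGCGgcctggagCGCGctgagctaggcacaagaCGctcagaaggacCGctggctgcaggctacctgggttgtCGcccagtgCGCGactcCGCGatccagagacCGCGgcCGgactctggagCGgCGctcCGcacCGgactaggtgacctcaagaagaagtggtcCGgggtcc
Lhx6, chr2:36105409-36105658, minus strand: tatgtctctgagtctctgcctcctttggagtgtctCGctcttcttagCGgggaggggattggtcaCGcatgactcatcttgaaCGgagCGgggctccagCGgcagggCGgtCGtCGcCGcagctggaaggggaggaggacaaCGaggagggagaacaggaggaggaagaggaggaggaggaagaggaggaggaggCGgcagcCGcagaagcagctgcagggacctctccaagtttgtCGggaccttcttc
Gad2, chr2:22622077-22622326, plus strand: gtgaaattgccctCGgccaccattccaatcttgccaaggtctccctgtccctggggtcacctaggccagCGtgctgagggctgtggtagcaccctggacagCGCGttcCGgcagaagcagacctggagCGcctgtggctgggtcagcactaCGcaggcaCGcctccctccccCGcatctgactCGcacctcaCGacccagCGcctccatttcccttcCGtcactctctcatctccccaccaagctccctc
Nkx2-1, chr12:56536909-56537158, minus strand: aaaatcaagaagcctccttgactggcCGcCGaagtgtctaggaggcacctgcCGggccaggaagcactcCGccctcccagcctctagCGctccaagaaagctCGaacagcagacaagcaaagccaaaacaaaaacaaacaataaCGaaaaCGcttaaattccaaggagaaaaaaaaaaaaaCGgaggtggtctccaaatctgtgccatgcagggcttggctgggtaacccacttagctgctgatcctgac
The Nr2f1 and Dlx1 promoters each held 22 CG dinucleotides, a number reached by 15.3% of all promoters of this length, and the Emx2 promoter held 24, reached by 12.3%. Lhx6 and Gad2 had 14 and 13. The Nkx2-1 promoter, inside a 24.3 kb domain, had only 9, which 40.9% of promoters reach. Of 1248 promoters inside domains the median was 14 CG and 68.5% had 10 or more, against a median of 6 and 38.3% of all 31396 promoters. The letters GGGCGG, the core recognised by Sp-family factors, occurred on either strand in 53.7% of promoters in domains and in 33.0% of all. The homeodomain core TAATTA, which reads the same on both strands, occurred in 3.93% and 4.81%. The comparison is with all RefSeq promoters, whether or not they lay in a shared region. Promoters in narrower shared regions were not taken apart, so the part of accessibility alone in these differences was not tested.

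Merged widths ran from 6002 to 54256 bp with a median of 7674.5 bp and quartiles of 6655.75 and 9902.25 bp, whereas the median over all shared autosomal regions was 1536 bp. There were 356 domains of 10000 bp or more, 44 of 20000 bp or more and 15 of 30000 bp or more. The width threshold cut a continuous distribution. Just inside it lay regions at Mat2b and Gadd45g, both 6002 bp, and Mcf2l, 6007 bp. Just outside lay regions at Ptpru (5995 bp), Fgfr2 and Fam53b (5998 bp) and Notch3 (5999 bp). A domain need not be a single open stretch, since peaks within any sample were at least 501 bp apart and a domain is often one long peak in some samples and a row of shorter peaks in others. In 91 domains a single peak was called in all 8 samples, 1297 held a peak of 6000 bp or more in at least 1 sample, 403 were covered for 6000 bp or more in all 8 samples and 123 in none.

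Wider regions were more often promoters and had more CpG and more counts per kilobase. A start site of a protein-coding transcript lay in 13.1% of shared regions under 2000 bp, in 45.3% of those of 4000 to 6000 bp, and in 55.7%, 74.7% and 77.3% of domains of 6000 to 10000 bp, 10000 to 20000 bp and 20000 bp or more. The median CpG density was 13.9 per kb in the narrowest class, rose to 28.1 at 10000 to 20000 bp and was 21.8 in the widest. Median CPM per merged kilobase, over the mean of the 8 samples, was 3.82 in the narrowest class and 7.60 in the widest. These shares describe regions, which are not replicates, and the gradient ran through the threshold rather than starting at it. A wider region has more bases in which a start site can fall, and the shares were not adjusted for width.

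**Figure D1:**
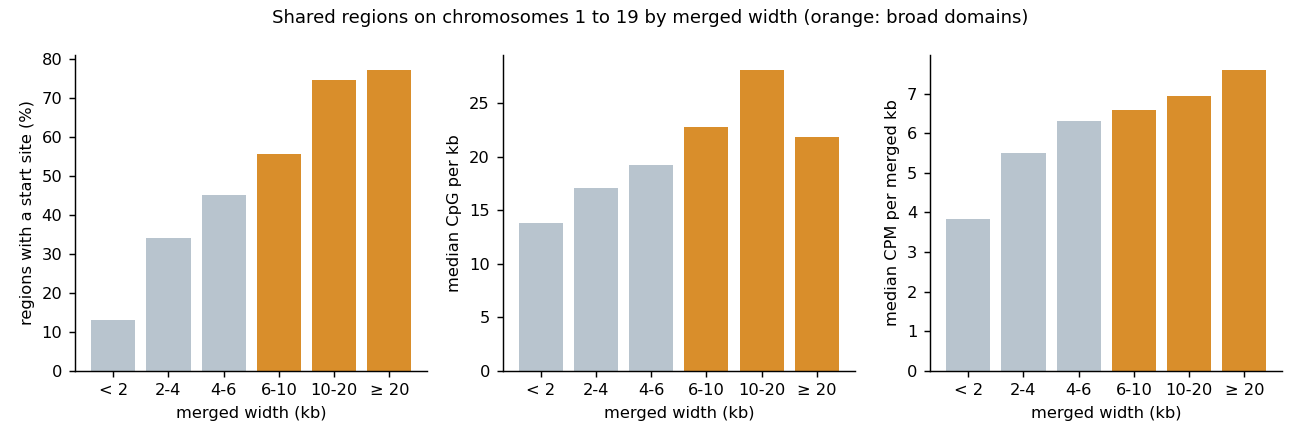
Shared regions on chromosomes 1 to 19 grouped by merged width in kb (x axes), with the percentage holding a protein-coding start site, the median CpG per kb and the median CPM per merged kb (y axes, left to right); orange bars are the broad domains. The share with a start site, not adjusted for width, climbs from 13.1% to 77.3%, while CpG density peaks at 28.1 per kb in domains of 10 to 20 kb.

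A start site of a protein-coding gene lay in 884 domains (60.4%), against 21.2% of shared autosomal regions. The median width was 7674.5 bp over the domains and 1536 bp over shared autosomal regions, and the shares were not adjusted for it. The 884 domains held the start sites of 942 genes, 4.53% of the 20780 protein-coding genes on these chromosomes. Most covered 1 gene (801 domains), 71 covered 2 and 12 covered 3 or more, up to 5 in a histone gene cluster on chromosome 13 (Hist1h2ae, Hist1h2bg, Hist1h2bf, Hist1h2ad and Hist1h3d). Domains of a single gene extended mostly downstream of the first start site, the most upstream one in the domain. The median was 2381 bp upstream of it and 5744 bp downstream, and 647 of 801 (80.8%) were longer downstream. Where a gene has several start sites, this choice lengthens the downstream part, which can also run past the end of the gene. Of the 580 domains without a protein-coding start site, 401 overlapped a gene body and 179 lay outside genes. Over all 580 the median distance to the nearest start site was 29491.5 bp and the largest 880153 bp. Some genes were overlapped by several domains, among them Gse1 and Zmiz1 with 10 each, Tcf4 with 7 and Bcl11b, Nfib, Msi2 and Bach2 with 6 each.

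The genes with a start site in a domain were weighted towards developmental transcription factors. By RefSeq description, 97 of 184 homeobox genes (52.7%), 11 of 18 SOX genes (61.1%) and 15 of 41 forkhead genes (36.6%) started in a domain, against 912 of all 19494 described genes (4.68%). Zinc finger genes, the largest class of mammalian transcription factors, were far lower, at 44 of 642 (6.85%). Genes whose description names basic helix-loop-helix (bHLH) stood at 2 of 15 (13.3%). That search misses bHLH genes described otherwise, as the bHLH and HES list below shows, so it does not describe the class. Among signalling and general classes, fibroblast growth factors stood at 6 of 30, Wnt genes at 2 of 19, ribosomal proteins at 8 of 167 (4.79%) and solute carriers at 7 of 356 (1.97%). None of 1087 olfactory receptor or 114 keratin genes started in a domain. Of 281 genes on the fixed lists, which were chosen for this tissue, 149 did, among them 36 of 40 homeobox and POU factors, 10 of 10 SOX factors, 16 of 24 bHLH and HES factors, 34 of 39 zinc finger, nuclear receptor, forkhead and T-box factors, 23 of 41 signalling genes, 11 of 31 neuronal genes, 7 of 34 chromatin and RNA housekeeping genes and 7 of 27 cell cycle and progenitor genes. The names of these lists do not cover every member. The list named for zinc finger, nuclear receptor, forkhead and T-box factors also held factors of other families, among them Nfix, Ebf1, Dmrta2 and Hmga2. The chromatin and RNA housekeeping list also held Actb, Tubb5 and Gapdh. Of the markers of other cell types, 0 of 11 endothelial, 0 of 8 microglial, 1 of 6 erythroid (Tal1) and 4 of 9 mural and mesenchymal genes (Tbx18, Foxc1, Twist1 and Foxd1, themselves transcription factors) started in a domain. Accessible promoters of developmental factors need not be expressed, and RNA was not measured here.

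The widest domain was that of Nr2f1 (chr13:78159945-78214200, GRCm38, 54.3 kb), which encodes COUP-TFI, a nuclear receptor that patterns the cortex and CGE. It held 527 and 405 CPM in CTX replicates 1 and 2, 421 and 383 in MGE, 294 and 293 in LGE and 550 and 666 in CGE. Both CGE samples were above all others and both LGE samples below, and the same order held for covered length, from 27.8 kb in LGE replicate 1, in 11 peaks, to 53.9 kb in CGE replicate 2, in a single peak. None of the 4 contrasts called it. Nr2f2 (chr7:70323186-70372776, 49.6 kb), the sister receptor COUP-TFII and a CGE marker, had 168 and 219 CPM in CTX, 340 and 295 in MGE, 145 and 196 in LGE and 313 and 485 in CGE. LGE and CTX overlapped at the low end and MGE and CGE at the high end, and it too was not called. In CGE replicate 2 a single peak covered its 49.6 kb, in LGE replicate 1 14 peaks covered 18.97 kb.

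Notch1 (chr2:26455162-26505313, 50.2 kb), the receptor that keeps neural progenitors undifferentiated, was covered by its domain over nearly the whole gene. It had 281 and 314 CPM in CTX, 515 and 340 in MGE, 398 and 436 in LGE and 341 and 363 in CGE. CTX lay below every GE sample, but the difference was not called (log2 fold -0.42, SE 0.17, edgeR adjusted p 0.153), and MGE replicate 1 alone reached 49.2 kb of covered length where the others had 24.8 to 37.3 kb. Mn1 (chr5:111412940-111456714, 43.8 kb), a transcriptional coregulator, ranged from 126 CPM in CTX replicate 2 to 329 in MGE replicate 1 with overlapping groups. Lhx2 (chr2:38335264-38373079, 37.8 kb), a LIM homeobox selector of cortical identity, had 348 and 438 CPM in CTX and 196 to 269 in the 6 GE samples, so the groups did not overlap. The remaining domains over 30 kb included those of Pou3f3 (37.6 kb), Sox2 (34.4 kb), Nfix (33.9 kb), Dlx5 and Dlx6 (33.6 kb), Pax6 (32.7 kb), Bcl11a (31.7 kb) and Lhx6 (30.5 kb), all of them genes for DNA-binding factors.

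Of the 8 widest domains 3 were the miR-9 loci. Mir9-1 (chr3:88196603-88244899, 48.3 kb, reaching into Rhbg) had 769 and 922 CPM in CTX, 863 and 690 in MGE, 433 and 434 in LGE and 463 and 475 in CGE. CTX and MGE were high and overlapped, and LGE and CGE were low and close together. In CTX against GE it was called (log2 fold 0.65, SE 0.12, edgeR adjusted p 0.0146), although MGE replicate 1 exceeded CTX replicate 1, and without LGE replicate 1 the adjusted p was 0.0528. Mir9-3 (chr7:79495451-79541412, 46.0 kb, 29089 bp from Polg) had 623 and 726 CPM in CTX and 555 to 928 in GE, and its log2 fold was 0.04 (SE 0.13, adjusted p 0.893). Mir9-2 (chr13:83711474-83751286, 39.8 kb, 58586 bp from the nearest Mef2c start site) had 665 and 736 CPM in CTX and 544 to 676 in GE, and its log2 fold was 0.17 (SE 0.11, adjusted p 0.405). The 3 genes with identical mature sequences thus lay in chromatin with different values, and the difference between their folds was not tested.

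All 3 genes of miR-124, the most abundant microRNA of neurons, also lay in domains, and each had a lower mean in CTX. Mir124a-3 (chr2:180885367-180899027, 13.7 kb) had 69.6 and 87.9 CPM in CTX and 167 to 278 in GE, which did not overlap (log2 fold -1.44, SE 0.18, edgeR adjusted p 0.00477). Mir124a-2 (chr3:17783703-17799669, 16.0 kb) had 122 and 118 CPM in CTX, 165 and 174 in MGE and 213 to 227 in LGE and CGE (log2 fold -0.74, SE 0.10, adjusted p 0.00558), and both kept their calls without any 1 sample. Mir124a-1 (chr14:64584790-64598954, 14.2 kb) had 167 CPM in the E12.5 CTX sample, only 48.7 in the E14.5 CTX sample and 149 to 258 in GE. It overlapped and was not called (log2 fold -0.82, SE 0.42, adjusted p 0.259). Of the 10 let-7 genes annotated on these chromosomes 1 lay in a domain.

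The length of the domains that was covered by a sample's own peaks differed between regions, with LGE the shortest. The median covered length was 6541 and 6220 bp in CTX replicates 1 and 2, 6574.5 and 6288.5 bp in MGE, 4949 and 5936.5 bp in LGE and 5792.5 and 6576 bp in CGE. Both LGE values were below those of CTX and MGE, whereas CGE replicate 2 had the highest value of all and CGE replicate 1 lay between the LGE samples. Summed over the 1464 domains, peaks covered 8.12 Mb in LGE replicate 1, 10.0 Mb in LGE replicate 2 and 9.74 to 11.4 Mb elsewhere. Mean CPM per covered kilobase of the domains was highest in LGE replicate 1 (11.9) and lowest in CGE replicate 2 (8.99), the samples with the least and the most covered length, but MGE replicate 1 was high on both measures, at 11.2. The number of domains that reached 6000 bp within the sample was 903 and 795 in CTX, 932 and 824 in MGE, 456 and 714 in LGE and 673 and 952 in CGE. LGE replicate 1, with the fewest peaks and 87.2 Mb of peak length in all, was the lowest on each of these measures of length.

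**Figure D2:**
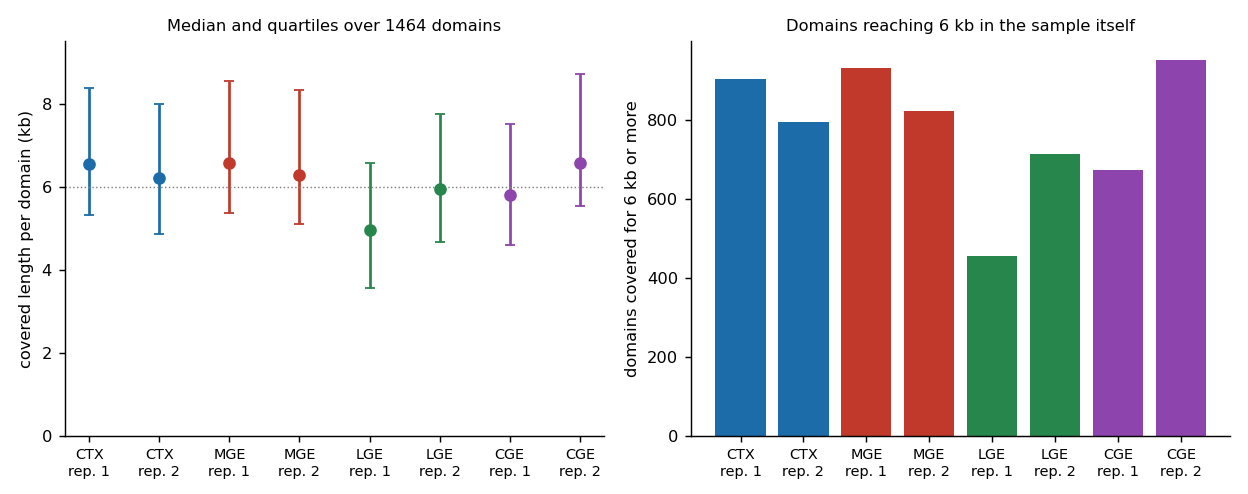
Left, median (point) and quartiles (bars) of the covered length in kb over the 1464 domains in each sample, with the 6 kb threshold dotted; right, number of domains covered for 6 kb or more in the sample itself. LGE replicate 1 is lowest on both, with a median of 4949 bp and 456 domains, and CGE replicate 2 highest with 6576 bp and 952 domains.

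Domain by domain, the mean covered length was longest in MGE for 675 domains, in CTX for 500, in CGE for 271 and in LGE for 18, and shortest in LGE for 956. The median difference was 998 bp for MGE minus LGE, with both MGE samples longer than both LGE samples in 753 domains and shorter in 48. For LGE minus CGE it was -879 bp, with 13 domains longer and 624 shorter in LGE. MGE minus CGE was 180 bp (283 and 246 domains) and CTX minus GE 111 bp (207 and 81 domains). These counts were not taken over all shared regions. There, on the autosomes, the median covered length was 1189 and 1052 bp in CTX and 971 and 1088 bp in MGE. It was 811 and 1006 bp in LGE and 1110 and 1196 bp in CGE, so MGE and LGE overlapped. Within replicate number 1 the difference of the medians was 1625.5 bp for MGE minus LGE and within number 2 it was 352 bp, so the sign held in both but the size did not. LGE minus CGE held in both, at -843.5 and -639.5 bp. MGE minus CGE was 782 and -287.5 bp and CTX minus GE 769 and -47 bp, so neither sign held within both replicate numbers. When covered length was divided by each sample's summed peak length, MGE minus LGE turned to -43.9 bp, CTX minus GE to -1374 bp and LGE minus CGE to 1149 bp. The sign of these differences thus depended on the scaling. Summed peak length did not order the samples as covered length did: MGE replicate 1 had 107 Mb of peaks and a median covered length of 6574.5 bp, and CGE replicate 1 had 127 Mb and 5792.5 bp. The part of one in the other was not tested.

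**Figure D3:**
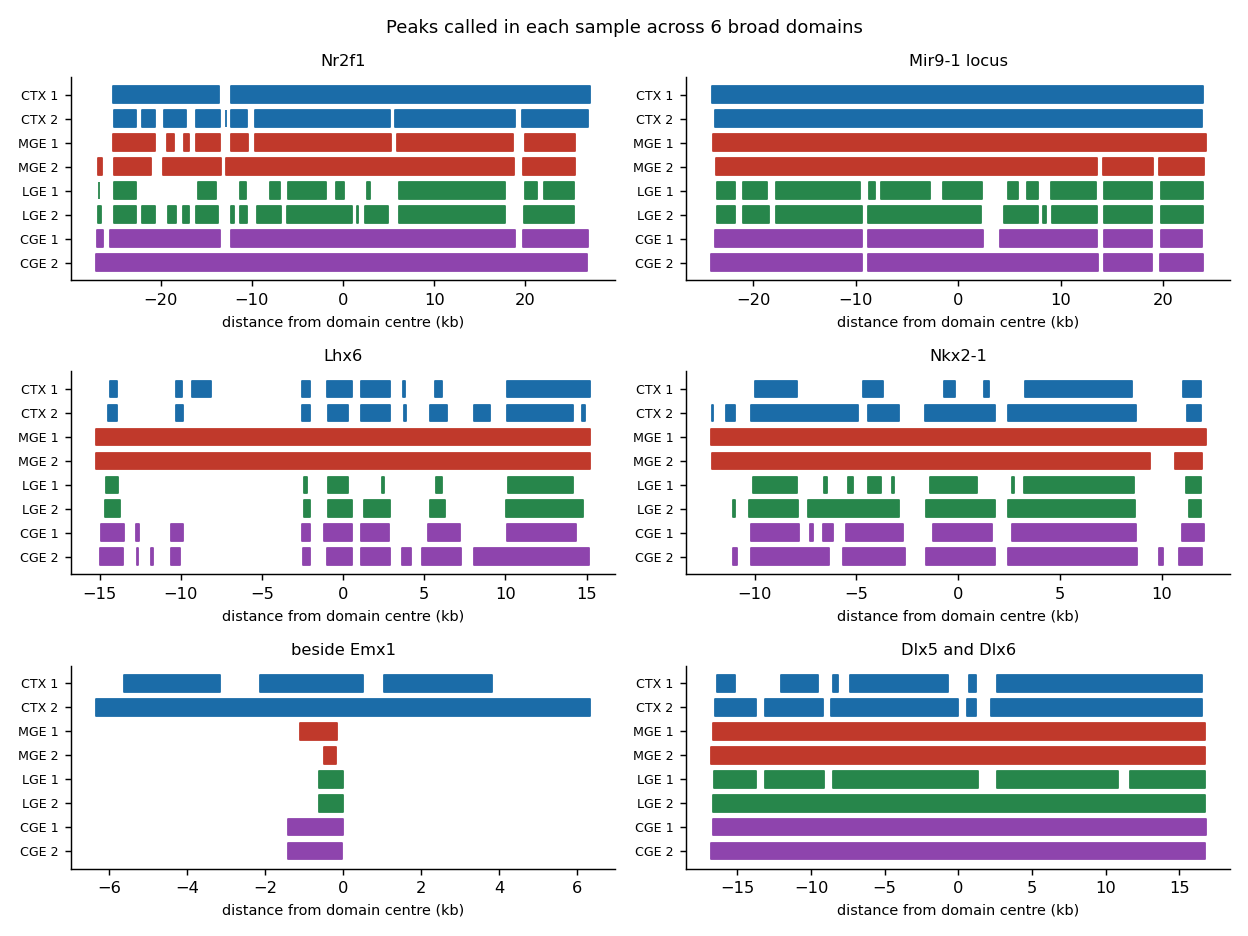
Peaks called in each sample (rows, coloured by region) across 6 broad domains, against distance from the domain centre in kb. The Lhx6 domain is a single peak in both MGE samples and 6 to 10 separate peaks in the 6 others, the domain beside Emx1 is long in CTX alone, and the Mir9-1 domain is broken into 4 to 11 peaks in LGE and CGE.

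The domains covered most evenly were mostly promoters, and those nearly uncovered in some sample mostly were not. In 43 domains the peaks covered 90% or more of the width in all 8 samples, and 90.7% of these held a start site. In 101 domains some sample covered under 20% of the width, and 24.8% of these held a start site. Ccnd2, a cyclin of intermediate progenitors, and Prox1, a homeobox factor of CGE-derived interneurons, were of the stable kind, with a single peak in all 8 samples covering 8.36 to 8.88 kb and 7.56 to 8.27 kb. Many domains owed their width to 1 or 2 samples: without CTX replicate 1 the rule found 1253 domains and without MGE replicate 1 it found 1323. A domain in Mroh2a (chr1:88231443-88241772, 10.3 kb) was covered for 10.0 kb in LGE replicate 1 and 6.24 kb in MGE replicate 1 and for 0.297 to 2.89 kb in the others, and its counts were 16.9 and 14.0 CPM in those and 0.339 to 3.47 in the others. Both of these are replicate 1 samples, and the part of the replicate number in these values was not tested.

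The share of all peak counts that fell in domains was 7.90% and 9.26% in CTX, 11.8% and 9.72% in MGE, 9.73% and 9.97% in LGE and 9.05% and 9.43% in CGE. CTX replicate 1 was lowest and MGE replicate 1 highest, and CTX replicate 2 lay within the range of the GE samples. The means were 8.58% ± 0.962 (SD, n = 2) in CTX and 9.94% ± 0.941 (SD, n = 6) in GE. The difference of -1.36 percentage points had an exact two-sided permutation p of 0.143, and the smallest p that 28 choices of 2 samples allow is 0.0714. In the 645 domains that reached 6000 bp from the CTX peaks alone and from the GE peaks alone, the share was 4.69% and 5.81% in CTX and 5.61% to 7.37% in GE, a difference of -0.996 percentage points (exact two-sided permutation p 0.143). Over all domains, the difference was -2.28 within replicate number 1 and -0.446 percentage points within number 2. As a share of the counts in shared autosomal regions only, domains held 10.2% and 10.6% in CTX. In GE that share was 9.91% (CGE replicate 1) to 12.4% (MGE replicate 1), so both CTX samples lay within its range.

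The contrast of CTX with GE asked which of these shared domains differed in accessibility between dorsal and ventral forebrain. Region and age are partly mixed in it, since CTX replicate 2 was labelled E14.5 and every GE sample E12.5. Counts were summed over nuclei per sample, the model was fitted to all 68274 shared regions, and a domain was called where edgeR's quasi-likelihood test, after Benjamini-Hochberg adjustment, gave p of at most 0.05. In bulk sums of this kind, fewer nuclei of a type and less accessibility per nucleus cannot be told apart. Of 1464 domains 282 (19.3%) were called, against 14.9% of all regions tested. Of these, 179 (12.2%) were higher in CTX, against 9.49% of all regions, and 103 (7.04%) lower, against 5.39%. In 257 of the 282 the CPM of the CTX and GE samples did not overlap, and the same share was not taken over all called regions. The median log2 fold was -0.04 over the domains and 0.03 over all regions. The split into higher and lower depended on scaling: 63.5% of the called domains were higher in CTX, against 53.1% of 294 calls with total counts as library size and 47.4% of 133 calls with an offset that holds how much of the region each sample's peaks covered. Of the 282, 105 were also called in the same direction with that offset. A sample's count in a region is the sum over its own peaks there, so reads outside those peaks are not counted. Peaks were also called on the same reads that were counted, so a region's counts and its covered length are not independent measures.

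The width rule itself favoured domains that differed. Taken from the GE peaks alone, 354 of the 1464 domains did not reach 6000 bp, and 122 of the 179 calls higher in CTX were among them. From the CTX peaks alone 539 did not, and they held 70 of the 103 lower calls. The 645 domains that met the width from each side alone, here called wide on both sides, held 83 calls (12.9%), 51 higher (7.91%) and 32 lower (4.96%), all below the 14.9%, 9.49% and 5.39% of all regions. These pooled shares mix regions with and without a protein-coding start site, which were called at different rates. Of the 494 domains wide on both sides with a start site 10.7% were called, against 3.94% of all regions with one. Of the 151 without a start site 19.9% were called, against 17.9% of all regions without one. The pooled share was thus below the background, the share of domains with a start site above theirs and that of domains without one near theirs. The part of the width rule and of the larger counts of domains in these shares was not tested. For a named domain that reached the width from 1 side alone, the contrast of those sides is given below as values and a fold, without a test.

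Domains without a start site were called more often than domains with one. Among the 580 without a protein-coding start site 169 (29.1%) were called, and among the 884 with one 113 (12.8%). Of the 645 domains wide on both sides, 30 of 151 without a start site (19.9%) and 53 of 494 with one (10.7%) were called. All shared regions showed the same order at lower levels, 17.9% without and 3.94% with a start site. The share called did not climb steadily with width. It was 12.6% under 2000 bp, 19.7% at 2000 to 4000 bp and 20.8% at 4000 to 6000 bp. It was 18.6% in both the 6000 to 10000 bp and the 10000 to 20000 bp class. In the 44 domains of 20000 bp or more it was 40.9%. These classes of domains were not limited to those wide on both sides. Merged width can rest on the peaks of CTX or of GE alone. The part of this in the shares by width, the 40.9% included, was not tested.

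Most domains of cortical identity genes were higher in CTX. Of the 15 domains with a start site of the CTX list, 11 were called higher, against 9.49% of all regions, and 0 lower, with a median log2 fold of 0.76 where all regions tested had 0.03. Of the 10 that were wide on both sides 8 were called higher. The same list and counts served above to check the labels, so these calls are not independent of that check. Nfix (chr8:84757337-84791211, 33.9 kb), a nuclear factor I gene of cortical and hippocampal development, had 324 and 152 CPM in CTX, 105 and 54.7 in MGE, 42.0 and 49.9 in LGE and 56.1 and 58.0 in CGE. The groups did not overlap (log2 fold 2.00, SE 0.30, edgeR adjusted p 0.00775), and 1 peak covered the whole domain in CTX replicate 1 where LGE replicate 1 had 8 peaks over 8.44 kb. The Lhx2 values given above were called (log2 fold 0.75, SE 0.15, adjusted p 0.0190). Emx2 (chr19:59448150-59472162, 24.0 kb), whose promoter is shown, had 224 and 361 CPM in CTX and 103 to 208 in GE (log2 fold 0.94, SE 0.21, adjusted p 0.0276). Pax6, a paired homeobox factor of cortical progenitors, had 299 and 334 CPM in CTX, 162 and 188 in MGE and 252 to 279 in LGE and CGE (log2 fold 0.45, SE 0.10, adjusted p 0.0300), so that MGE was the low group. Lhx2 lost its call without CTX replicate 2, LGE replicate 1 or CGE replicate 1 (adjusted p 0.0522, 0.0564 and 0.0520). Emx2 and Pax6 lost theirs without any of 7 and 6 samples, with adjusted p up to 0.103 and 0.0974, both of them without CTX replicate 2, MGE replicate 2, either LGE or either CGE sample and Emx2 also without MGE replicate 1.

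Neurod2, a bHLH factor of postmitotic glutamatergic neurons, rested on a single sample. Its 14.3 kb domain had 13.4 to 37.3 CPM in GE. Its CTX values were 166 in replicate 1, labelled E12.5, and 29.4 in replicate 2, labelled E14.5. The groups overlapped, with a log2 fold of 2.14, and the GE peaks alone reached only 3.85 kb there. Bcl11a, a zinc finger factor of deep-layer neurons, was steadier, with 339 and 371 CPM in CTX and 234 to 268 in GE (log2 fold 0.53, SE 0.09, edgeR adjusted p 0.0126). Against 9.49% higher and 5.39% lower of all regions, the bHLH and HES list had 8 domains higher and 1 lower of 19, with a median log2 fold of 0.46, but of its 9 domains wide on both sides only 1 was called. The zinc finger, nuclear receptor, forkhead and T-box list, which also holds other factors such as Nfix, had 9 higher and 1 lower of 35. Its median log2 fold was 0.17, and 7 of its 31 domains wide on both sides were higher.

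Among called domains whose groups did not overlap, the largest folds lay in domains without a start site, each of which owed its width to 1 side of the contrast. A domain from the 3′ end of Emx1 to the end of Sfxn5 (chr6:85201049-85213732, 12.7 kb) had 63.9 and 34.7 CPM in CTX and 0.607 to 4.68 in GE, which did not overlap (log2 fold 4.31). Peaks covered 7.85 and 12.7 kb of it in CTX and 0.325 to 1.40 kb in GE. A domain within Tcf4, a bHLH partner of proneural factors, 11809 bp from its nearest start site, had 63.4 and 12.2 CPM in CTX and 0 (LGE replicate 2) to 6.15 in GE (log2 fold 5.18). In the other direction, a domain in Ptprn2, a receptor phosphatase of secretory vesicles (chr12:117226789-117233335, 6.55 kb, all intron but 126 bp), had 2.09 and 0.783 CPM in CTX and 5.80 to 15.6 in GE (log2 fold -2.99). A domain 41565 bp from Dlx6 (chr6:6813179-6821769, 8.59 kb) had 1.197 and 4.02 CPM in CTX and 13.6 to 33.5 in GE (log2 fold -2.86). The GE peaks alone reached 1.41 and 3.39 kb at the first pair, and the CTX peaks alone 0.812 and 1.35 kb at the second. When covered length entered the model as an offset, the log2 folds of these 4 were 0.87, 1.55, -0.35 and -0.24. Only reads in a sample's own peaks were counted, so low values go with short peaks. In the Tcf4 domain LGE replicate 2 had 50 bp of peak.

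**Figure D4:**
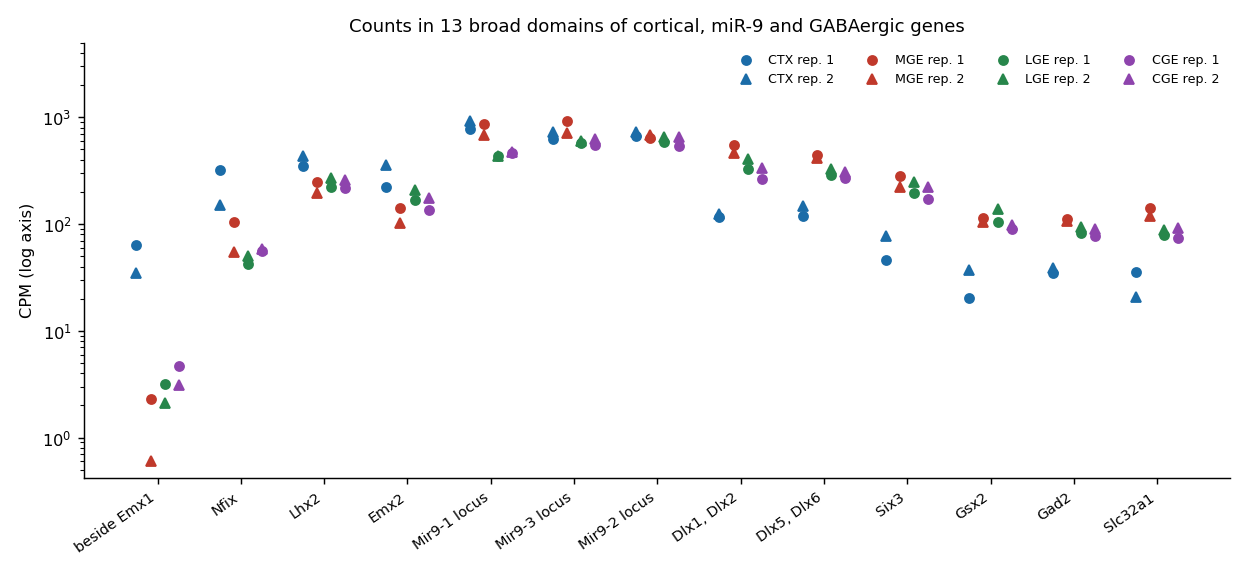
CPM (log axis) of 13 domains in each sample, coloured by region, with circles for replicate 1 and triangles for replicate 2. Both CTX samples lie above all GE samples at Emx1, Nfix, Lhx2 and Emx2 and below them at the 6 domains from Dlx1 and Dlx2 to Slc32a1, while the Mir9-2 and Mir9-3 loci overlap.

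Most domains of GABAergic lineage genes were lower in CTX. All 10 genes of the pan-GABAergic list started in domains, 8 in number because neighbouring Dlx genes share one. Of the 8, 6 were called lower, against 5.39% of all regions, and 0 higher, with a median log2 fold of -1.18 against 0.03. Of the 6 that were wide on both sides 5 were called lower. This list too had served to check the labels on the same counts. Dlx1 and Dlx2 (chr2:71522721-71548699, 26.0 kb), homeobox factors needed for interneuron migration, had 116 and 123.5 CPM in CTX, 546 and 465 in MGE, 331 and 410 in LGE and 265 and 337 in CGE. CTX lay far below, and MGE was above both other eminences (CTX against GE: log2 fold -1.68, SE 0.16, edgeR adjusted p 0.00268). Covered length was also shorter in CTX, at 20.7 and 23.0 kb against 24.8 to 25.9 kb in GE, and the fold with the covered-length offset was -1.46 (adjusted p 0.00206). Dlx5 and Dlx6 (chr6:6849516-6883109, 33.6 kb) had 118 and 149 CPM in CTX and 269 to 447 in GE (log2 fold -1.34, SE 0.14, adjusted p 0.00321).

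The enzymes and the transporter of GABA followed. Gad2 (chr2:22617895-22631239, 13.3 kb), a glutamate decarboxylase, had 34.8 and 38.9 CPM in CTX and 77.8 to 112 in GE (log2 fold -1.34, SE 0.13, edgeR adjusted p 0.00267). Gad1, the second decarboxylase, had 63.3 and 64.7 CPM in CTX and 95.4 to 159 in GE (log2 fold -0.83, SE 0.13, adjusted p 0.00861), and Slc32a1, which loads GABA into vesicles, 35.3 and 20.9 against 74.8 to 142 (log2 fold -1.78, SE 0.23, adjusted p 0.00522). The ventral patterning gene Six3 had 46.1 and 77.9 CPM in CTX and 173 to 285 in GE (log2 fold -1.85, SE 0.26, adjusted p 0.00621). The 6 domains of Dlx1 and Dlx2, Dlx5 and Dlx6, Gad2, Gad1, Slc32a1 and Six3 kept their calls with each alternative setting and without any 1 sample. Both further ventral factors owed their width to GE: Gsx2, a homeobox factor of LGE progenitors, had 20.3 and 36.9 CPM in CTX and 90.5 to 140 in GE (log2 fold -1.91), and Olig2, a bHLH factor of ventral progenitors, 71.7 and 56.7 against 96.2 to 226 (log2 fold -1.05).

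Few domains of general neural progenitor genes were called, in lists too short to set their shares against a background. Of the 10 SOX domains 1 was called (10.0%) and of the 7 domains of the cell cycle and progenitor list 1 (14.3%), against 14.9% of all regions. All of these domains hold a start site, and 3.94% of all regions with one and 12.8% of domains with one were called. Domains wide on both sides numbered 9 and 5 in these lists, with 1 and 0 called. Sox2 (34.4 kb), the pluripotency and neural progenitor factor, had 346 and 442 CPM in CTX and 336 to 523 in GE (log2 fold -0.12, SE 0.16, edgeR adjusted p 0.714). Sox1 had 166 and 212 CPM in CTX and 217 to 478 in GE, was called lower (log2 fold -0.77, SE 0.20, adjusted p 0.0402), and lost the call without any sample except CTX replicate 2, with adjusted p of 0.0575 to 0.129. Hes1, a Notch effector, had 132 and 237 CPM in CTX and 103 to 167 in GE (log2 fold 0.46, SE 0.22, adjusted p 0.236), and Dll1, a Notch ligand, 148 and 181 against 195 to 243 (log2 fold -0.38, SE 0.11, adjusted p 0.0702). Of 7 chromatin and RNA housekeeping domains 0 were called in any contrast, and 0 had an unadjusted p under 0.05 or were called by DESeq2. Among them Actb, Tubb5 and Gapdh had log2 folds of -0.11, -0.08 and -0.04 in CTX against GE. None of the 4 mural and mesenchymal domains or the Tal1 domain was called by edgeR or DESeq2 either, and 0 of these 5 had an unadjusted p under 0.05 in any contrast. Over the 8 samples, the summed CPM of the endothelial list ranged from 224 to 292 and of the microglial list from 150 to 184, that of the mural and mesenchymal list from 197 (CTX replicate 1) to 355 (MGE replicate 1) and that of the erythroid list from 78.4 to 133 in the same samples.

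The contrasts among the eminences asked which domains separate the ventral regions from each other, and few did. Between MGE and LGE 8 domains (0.546%) were called, against 0.694% of all regions, 4 higher in MGE (0.273%, against 0.207%) and 4 lower (0.273%, against 0.488%). Between MGE and CGE 2 domains (0.137%) were called, against 0.325% of all regions, both higher in MGE, where 0.0498% of all regions were higher and 0.275% lower. Between LGE and CGE edgeR called 0 domains, as it called 0.0% of all regions, with 54 domains at an unadjusted p under 0.05 and 6 called by DESeq2. Of the 8 and 2 calls, 5 and 2 were in domains that met the width both without the peaks of the first region and without those of the second. Though the same share was not taken over all called regions, all 10 calls had groups that did not overlap. They depended on the samples in the model: without any 1 of the 6 GE samples 0 domains were called in either MGE contrast, with 95 to 359 (MGE against LGE) and 82 to 389 (MGE against CGE) at an unadjusted p under 0.05. Without CTX replicate 1 or CTX replicate 2, whose spread is shared with the other groups, 114 and 86 domains were called in the MGE contrasts with LGE and CGE. The fit of the 6 GE samples alone called 121, 90 and 0 in the 3 contrasts, with 134 domains at an unadjusted p under 0.05 in the last. For these alternative fits the share of all regions called was not taken, so their counts of domains have no background. The replicate number, which coincides with the sets by odd entries above, was also entered as a block in the model. With it 0 domains were called among the eminences, and the edgeR adjusted p of these 10 calls was 0.0532 to 0.0700.

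Nkx2-1 and Lhx6, the master factor of the MGE and its target in postmitotic interneurons, were called in both MGE contrasts. The Nkx2-1 domain (chr12:56517497-56541787, 24.3 kb) had 532 and 368 CPM in MGE, 67.6 and 80.6 in LGE, 77.5 and 73.0 in CGE and 33.3 and 58.5 in CTX. MGE stood well above the other regions, which lay close together, with log2 folds of 2.60 (SE 0.30, edgeR adjusted p 0.0326) against LGE and 2.58 (SE 0.30, adjusted p 0.0379) against CGE. Its peaks covered 24.3 and 22.8 kb in MGE and 11.9 to 18.1 kb in LGE and CGE, and with the covered-length offset the folds were 1.87 (adjusted p 0.0140) and 2.10 (adjusted p 0.0206). The Lhx6 domain (chr2:36076465-36106951, 30.5 kb) had 268 and 237 CPM in MGE, 45.8 and 62.0 in LGE, 59.9 and 66.6 in CGE and 40.1 and 54.5 in CTX. A single peak covered it in each MGE sample, 30.5 and 30.4 kb, and 6 to 10 peaks covered 6.71 to 16.0 kb elsewhere. Its log2 folds were 2.23 (SE 0.22, adjusted p 0.0242) against LGE and 2.00 (SE 0.22, adjusted p 0.0347) against CGE, and with the offset 0.35 (adjusted p 0.603) and 0.89 (adjusted p 0.119). Without MGE replicate 1 the adjusted p against LGE was 0.226 for both genes.

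Shh, the ventral morphogen that induces Nkx2-1, had a start-site domain whose width rested on MGE, since the other peaks reached 5.05 kb (chr5:28457665-28467800, 10.1 kb). It had 105 and 107 CPM in MGE, 25.01 and 32.6 in LGE, 35.8 and 47.3 in CGE and 29.0 and 24.96 in CTX (MGE against LGE: log2 fold 1.88), and its fold with the offset was 1.08. A domain in Polr3b (chr10:84706448-84714092, 7.65 kb, all intron but 104 bp), 41970 bp from the nearest start site, had 49.2 and 61.2 CPM in MGE and 12.55 and 15.8 in LGE (log2 fold 1.96), and it too owed its width to MGE. Lower in MGE were 2 domains in the gene body of Meis2, a homeobox factor of LGE and striatal lineages, 78966 and 58516 bp from its nearest start site. The 6.22 kb domain (chr2:115979327-115985546), wholly intronic, had 10.4 and 12.2 CPM in MGE, 33.9 and 32.5 in LGE and 23.2 and 24.7 in CGE, and the 12.53 kb domain (chr2:115993463-116005996) 19.9 and 22.4, 50.4 and 67.6, and 29.3 and 35.5 in the same order. CGE lay between in both. The log2 fold for MGE against LGE was -1.56 for the former, which owed its width to LGE, and -1.48 (SE 0.20, edgeR adjusted p 0.0365) for the latter. The 22.2 kb domain over the Meis2 start sites had 191 and 174 CPM in MGE and 221 and 269 in LGE and was not called.

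The last 2 domains lower in MGE than in LGE were at a start site of Ptpn14 and beside Rpusd4. Ptpn14 (chr1:189785116-189792924, 7.81 kb), a phosphatase of the Hippo pathway, had 22.8 and 22.5 CPM in MGE and 52.5 and 53.6 in LGE (log2 fold -1.23, SE 0.18, edgeR adjusted p 0.0423), although peaks covered more of it in MGE, 5.53 and 6.61 kb, than in LGE, 2.68 and 4.32 kb. The domain 61884 bp from Rpusd4 (chr9:35329749-35337221, 7.47 kb) had 21.7 and 20.97 CPM in MGE, 43.9 and 46.9 in LGE, 35.3 and 31.1 in CGE and 91.0 and 108 in CTX, with CTX above all GE samples. Its width rested on CTX, and its log2 fold in CTX against GE was 1.65. For MGE against LGE the log2 fold was -1.09 (SE 0.15, adjusted p 0.04003). For these 2 domains the MGE against LGE adjusted p was up to 0.285 when 1 GE sample was left out.

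**Figure D5:**
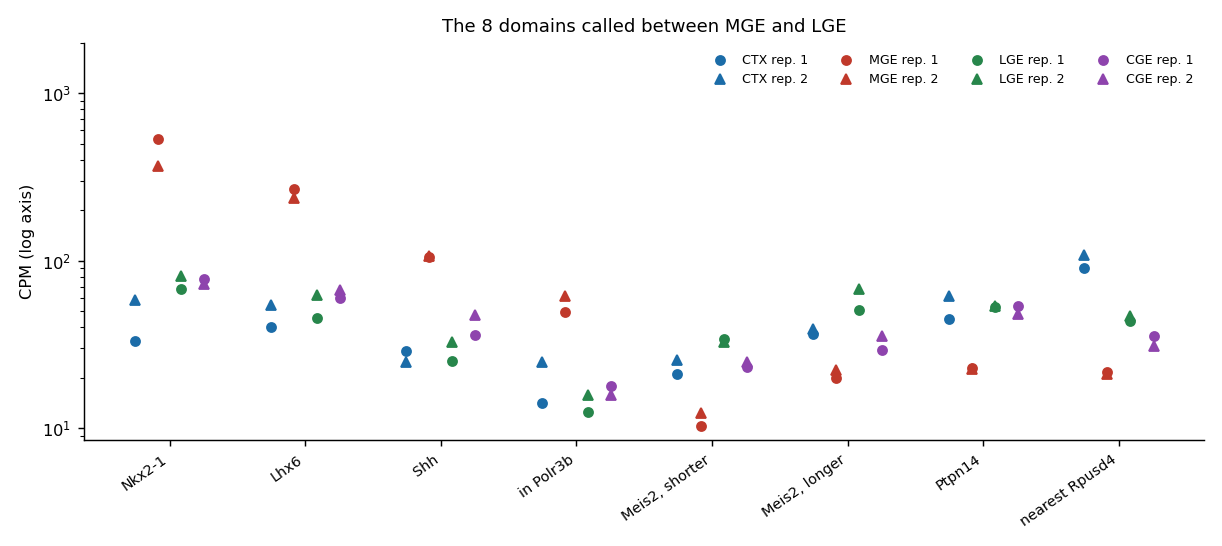
CPM (log axis) of the 8 domains called between MGE and LGE in each sample, coloured by region, with circles for replicate 1 and triangles for replicate 2. MGE lies above the 6 other samples at Nkx2-1, Lhx6, Shh and in Polr3b and below both LGE samples at the 4 others.

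Most domains had a positive fold in MGE, though few passed the test. The median log2 fold over the 1464 domains was 0.21 between MGE and LGE and 0.29 between MGE and CGE, where all tested regions had -0.00 and 0.00, and 73.4% and 78.5% of the domains had a positive fold. Without MGE replicate 1 the medians were 0.07 and 0.13, so much of the shift rested on that sample. The medians were 0.18 and 0.26 in the 1228 and 1151 domains that met the width both without the peaks of the first region and without those of the second. The covered-length offset turned the median against LGE to -0.06 and left that against CGE at 0.24.

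The Hox genes, which pattern the hindbrain, spinal cord and trunk and are known to be silent in the forebrain, also lay in broad domains. Of 39 Hox genes 21 started in 19 domains. Their counts were low for their width: 1.13 to 3.32 CPM per merged kb, with a median of 2.04, where the median over all domains was 6.69 and all 19 lay below it. They were CpG-rich, with a median of 35.4 CpG per kb against 23.9 over all domains. None was called in any contrast by edgeR or DESeq2, where edgeR called 14.9%, 0.694%, 0.325% and 0.0% of all regions in the 4 contrasts, and 1 had an unadjusted p under 0.05, between MGE and CGE. Their log2 folds were -0.52 to 0.06 in CTX against GE. Each had a positive fold in MGE against LGE (median 0.91) and against CGE (median 1.02), and without MGE replicate 1 the medians were 0.51 and 0.62. Without the Hox genes, 76 of 145 homeobox genes (52.4%) started in a domain.

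A domain with very high counts was not at a protein-coding gene. The region at chr17:39842773-39849055 (6.28 kb), 101465 bp from the nearest protein-coding start site and annotated with ribosomal RNA sequence and long noncoding RNA genes, had 1087 and 1998 CPM in CTX and 1469 to 2038 in GE, 1.07% to 1.89% of all counts in domains. Its largest count in 1 nucleus was 2454, and reads from any copy of the ribosomal repeats can be placed there, so its accessibility is uncertain. Of the remaining members, 25 had under 500 bp of peak in at least 1 sample and are in all counts given.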

How the data were processed

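Nuclei of 8 WT embryonic brain samples were profiled with the 10x Genomics single-nucleus ATAC assay. Per the labels, the authors used Cell Ranger ATAC 1.2.0 with GRCm38 (mm10), and peaks differed between samples, so they were called in each. The deposited matrices hold raw counts per peak and nucleus, and the deposited peak lists hold positions. The deposited motif counts were not used here. The counts are of fragment ends without molecular identifiers, so the precision of each value follows the depth only in part.

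Peaks on standard chromosomes were merged where they touched, and counts were summed over all deposited nuclei per sample, since nuclei are not replicates. The count of a merged region is the sum over the sample's own peaks in it. No nucleus was removed and no doublet caller was run. Counts in the 68274 regions with a peak in all 8 samples were tested with edgeR 4.0.16 (glmQLFit and glmQLFTest, TMM scaling, filterByExpr with a minimum count of 10, which kept all of them) in R 4.3.3. A single model held 4 groups of 2, and GE is the mean of MGE, LGE and CGE. The standard error (SE) of a log2 fold is the one its test implies, and p-values were adjusted over all regions. CPM is relative to the TMM-scaled counts in shared regions. DESeq2 1.42.0, other scalings, a covered-length offset, the 6 GE samples alone, the replicate number as a block, and each sample left out were alternatives. The model was tested on simulated data.

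Genes and start sites of protein-coding transcripts are from GENCODE M21, and coordinates are 1-based. A domain is named by the protein-coding genes that start in it, else by the gene bodies it overlaps, else by the nearest start site. Named domains are the 8 widest, up to 2 called per contrast and direction with the largest folds and no overlap between groups, those with the extreme differences of covered length, up to 4 per gene list by width, and those at the threshold. The miRNA loci, the Hox, Emx2, Gad1, Slc32a1, Six3, Gsx2 and Shh domains, every domain called among the eminences and the region of ribosomal sequence were added after their values had been seen. The members and lists were chosen with earlier results of these data known. The labels do not say that equal replicate numbers mark shared material, and the correlation of replicate differences between regions over all shared regions was -0.04 to 0.45, over 0.1 in 3 of 6 pairs of regions, and -0.20 to 0.69 over the broad domains. Since not every pair was over 0.1, the block was kept as an alternative. The peaks of each side of a contrast were also merged alone, a step added after the values had been seen.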

Additional observations from a re-analysis of the deposited data

Results flagged for a closer look

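In 4 of 76 measures over the 6 GE samples, a single sample lay apart from the 5 others by more than Dixon's critical ratio of 0.625 allows, and in all 4 it was MGE replicate 1. Chance flags about 1 in 20 such groups, and the measures share samples and are not independent. The share of peak counts in broad domains was 11.8% there and 9.05% to 9.97% in the others. The domain of Nfix, a nuclear factor I gene, had 105 CPM there and 42.0 to 58.0 in the others. The domain 41565 bp from Dlx6 had 33.5 CPM there and 13.6 to 18.7 in the others. The domain of Foxc1, a forkhead factor of mesenchyme, had 97.5 CPM there and 67.9 to 76.0 in the others. MGE replicate 1 also had the most nuclei, 6845, and a share of 9.54% odd entries like the other replicate 1 samples. The part of either in these values was not tested.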

How the results depend on the processing

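The number of domains was 2527 at a width of 5000 bp, 662 at 8000 bp, 403 with 6000 bp covered in every sample, and 1253 to 1467 without 1 sample. With covered length scaled to each sample's summed peak length, the median differences were -1374 bp for CTX minus GE, -43.9 for MGE minus LGE, 1295 for MGE minus CGE and 1149 for LGE minus CGE. Without 1 sample they ran from -77.2 (without LGE replicate 1; -33.5 without CGE replicate 1) to 332 bp, from 424 (without LGE replicate 1) to 1474 bp, from -193 (without CGE replicate 1) to 566.5 bp and from -1377 to -278 bp in that order. The share of counts differed by -2.04 to -0.683 percentage points without 1 sample (exact two-sided permutation p 0.0952 to 0.571).

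The domains called in CTX against GE (282) were 391 by DESeq2, 294 with total counts, 283 with RLE scaling, 133 with the covered-length offset and 151 (without CGE replicate 2) to 386 (without CTX replicate 1) without 1 sample, including 180, 162, 152 and 173 without MGE replicate 1, either LGE replicate (1, then 2) and CGE replicate 1. For MGE against LGE (8) and MGE against CGE (2) the counts were 105 and 87 by DESeq2, 4 and 1 with the offset, 10 and 4 with total counts, 121 and 90 with the GE samples alone, and 0 to 114 and 0 to 86 without 1 sample. For LGE against CGE (0) DESeq2 called 6, and edgeR called 0 in every setting run. Counting only the domains that meet the width without the peaks of whichever side of the contrast is left out, chosen after seeing the data, gave 83, 5, 2 and 0. With the replicate number as a block, edgeR called 286, 0, 0 and 0 domains in the 4 contrasts, with 525, 298, 328 and 75 at an unadjusted p under 0.05. Of 28 named domains called in CTX against GE, 12 kept the call in every setting and 21 in every one but the offset, and none of the named calls reversed. The cause of these changes was not tested, except that leaving out a sample leaves its group with 1 sample, which is then assumed to vary like the others.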

Other observations

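Long noncoding RNA genes started in 322 of the 1464 domains. Among them, chosen after their values had been seen, were Dlx6os1, Dlx1as, Six3os1, Emx2os, Pax6os1, Sox1ot and Pantr1 beside Pou3f3, and the miR-9 and miR-124 loci held the host transcripts Mir9-3hg, Mir124-2hg and Mir124a-1hg. Their accessibility cannot be told apart from that of the neighbouring gene, because the counts are of a shared domain. Domains were spread over all 19 autosomes and made up 1.66% (chromosome 16) to 2.57% (chromosome 12) of the shared regions of each.

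Each region had 2 samples, and 1 CTX sample was of another age. Domains carry more counts than narrow regions, and the part of counting error in the calls was not tested.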
